A study of Mus musculus with 12 samples.

Results

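Oxidative phosphorylation genes of the nuclear and the mitochondrial genome were examined in 12 RNA libraries of mouse optic nerve. They were taken from the count table by symbol, as the genes starting with Ndufa, Ndufb, Ndufc, Ndufs, Ndufv, Uqcr, Sdh, Cox4, Cox5, Cox6, Cox7, Cox8, Atp5, mt-Nd, mt-Co, mt-Cyt or mt-Atp. Names holding -ps were left out, as were Ndufa4l2 and Cox6a2, and a member needed 10 or more counts in at least 3 libraries. Of 110 rows with these prefixes 105 remained after the exclusions, and 103 passed the minimum, among 35275 genes in the table and 25593 with any count. Cox7b2 and Cox8c did not pass. The 103 members are 79 nuclear subunit genes (36 of complex I, 4 of complex II, 8 of complex III, 16 of complex IV and 15 of complex V), 11 nuclear genes of assembly or related factors, and 13 mitochondrial protein genes. All 103 were among the 18344 genes that passed the filter of the test.

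The libraries came from mice of a neurofibromatosis type 1 (NF1) model given carboplatin (3 libraries), a platinum compound that damages DNA, selumetinib (3 libraries), a MEK kinase inhibitor, or phosphate-buffered saline (PBS, 6 libraries), whose titles call them controls. Every group carries the NF1 label, and libraries of mice without it were not analysed here. No label states the Nf1 allele, a Cre driver, the strain, the dose, the schedule, or the age and sex of the mice. Whether each library is an animal of its own is likewise unstated. The p-values set group differences against the spread between libraries, which may in part be technical and not between animals. Libraries held 21793052 to 33375754 counts. The labels name the tissue as optic nerve and the cell type as nerve cells. Among marker genes, those of mature oligodendrocytes, the myelinating cells, took 2.15% to 8.48% of the counts of a library, and those of neurons 0.00437% to 0.230%.

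Oxidative phosphorylation passes electrons from NADH and succinate through complexes I to IV of the inner mitochondrial membrane to oxygen, and complex V makes ATP from the proton gradient that this builds. Most subunits are encoded in the nucleus and imported, while the mitochondrial genome encodes core subunits of complexes I, III, IV and V and none of complex II. Optic nerve axons are rich in mitochondria, and several subunits of complex IV exist as isoforms that differ between tissues.

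The library PBS 1 stood apart from the other PBS libraries in these genes and in its tissue markers. Levels are given in CPM, counts relative to library size after scaling with TMM factors, the usual CPM unit. The 79 nuclear subunit genes summed to 42308 CPM in PBS 1, against 7160, 6569, 6094, 6185 and 6407 CPM in PBS 2 to 6, 6.6 times their median. The 13 mitochondrial genes summed to 146090 CPM in PBS 1, against 41232, 31550, 26812, 29859 and 37529 CPM in PBS 2 to 6, 4.63 times their median. PBS 1 was the highest PBS library for 77 of the 79 nuclear subunit genes, 11 of the 11 assembly genes and 13 of the 13 mitochondrial genes. The 18 skeletal muscle markers, none at 0 there, took 7.5% of the counts of PBS 1, against 0.0356% and 0.0502% in PBS 2 and 3 and 0.00319% to 0.00344% in PBS 4 to 6. They took 0.288%, 0.227% and 0.0194% in carboplatin 1 to 3 and 0.00380% to 0.00531% in selumetinib. The sums, counts and medians below are therefore given with and without PBS 1, and the fold change of a single gene comes from the fit without PBS 1 unless all libraries are named. In bulk tissue, a different number of cells of a type and a different amount of RNA per cell cannot be told apart.

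The excess in PBS 1 was not even over the members, and the tissue isoforms of complex IV marked its extremes. By complex, the summed nuclear subunits of PBS 1 were 6.52, 5.06, 7.78, 5.76 and 7.37 times the median of PBS 2 to 6 for complexes I to V, and the assembly genes 2.72 times. Cox8b, the isoform of subunit 8 found in skeletal and heart muscle, was at 645 CPM in PBS 1, against 1.97, 1.67, 0.319, 0.330 and 0.133 CPM in PBS 2 to 6. Cox7a1, the muscle isoform of subunit 7a, was at 318 CPM in PBS 1, against 2.64 to 5.07 CPM in PBS 2 to 6, 81.8 times their median. The next largest ratios were 18.2 for Atp5g1, a gene for the c subunit of the ATP synthase rotor, 15.5 for the complex I assembly factor gene Ndufaf6, and 14.3 for the complex IV subunit gene Cox5a. Cox6a2, the muscle isoform that the choice of members left out, was at 1102 CPM in PBS 1, against 0.371 to 7.25 CPM in PBS 2 to 6.

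Cox6a1 and Cox8a, isoforms that most tissues use, behaved otherwise, while the common isoforms Cox4i1, Cox6b1 and Cox7a2 were raised in PBS 1. Cox6a1 was at 177 CPM in PBS 1, against 187, 192, 158, 193 and 173 CPM in PBS 2 to 6, and so lay inside their range. Cox8a was at 179 CPM in PBS 1, against 134 to 158 CPM in PBS 2 to 6, 1.20 times their median. Cox6b2, an isoform known from testis, was at 7.5 CPM in PBS 1, against 8.37 to 13.4 CPM in PBS 2 to 6, and was the lowest ratio of the members at 0.658. Cox7a2l, which takes part in joining complexes into supercomplexes, and Cox4i2, an isoform known from lung, had ratios of 2.18 and 2.01. Cox4i1, the common isoform of subunit 4, had a ratio of 4.21, and Cox6b1 and Cox7a2 ratios of 8.07 and 6.21. The values in PBS 1 are those of 1 library, so they are a description with no test.

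**Figure D1:**
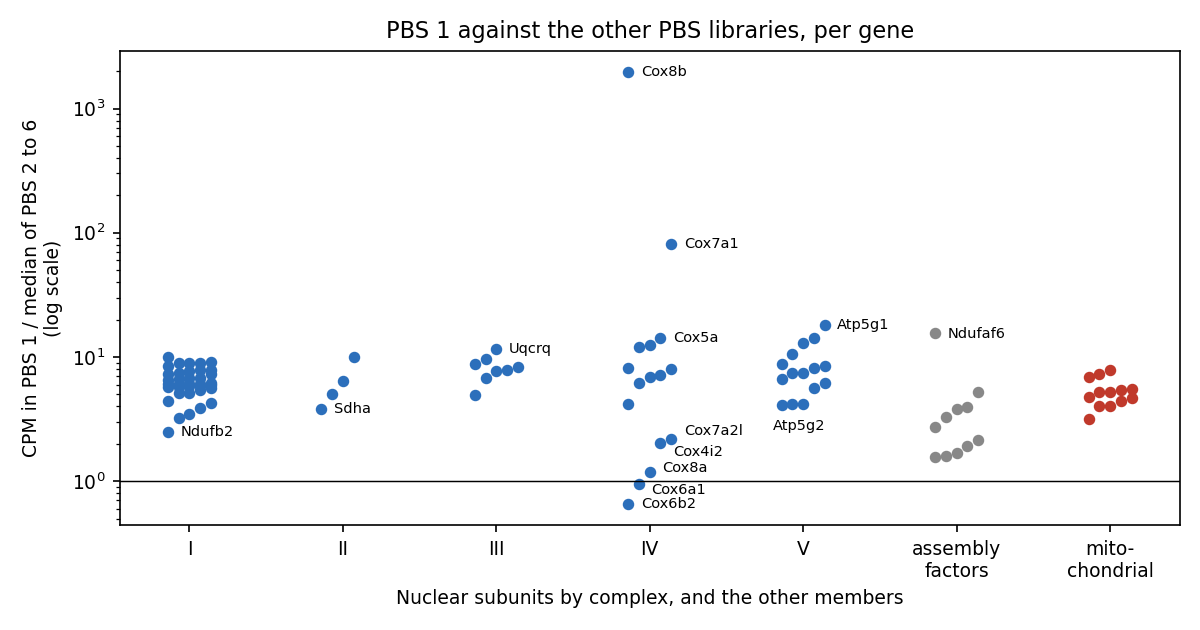
Each point is 1 member gene, with its CPM in PBS 1 divided by its median in PBS 2 to 6 on a log axis, by complex for nuclear subunits (blue), and for assembly factors (grey) and mitochondrial genes (red). Most nuclear subunits lie between 2.48 and 18.2, Cox8b and Cox7a1 lie above, and Cox6a1 and Cox6b2 lie below the line at 1.

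The promoters of 3 of these isoform genes are shown, chosen for their ratios: Cox8b had the largest, and Cox6a1 and Cox8a were among the smallest. They do not stand for all widely used isoforms, since Cox6b1, Cox7a2 and Cox4i1 had ratios of 8.07, 6.21 and 4.21. The sequences run from 250 bases before to 50 after the start (RefSeq, build GRCm38.p6, all on the minus strand, written 5′ to 3′), at chr5:115348909-115349208 for Cox6a1, chr19:7217567-7217866 for Cox8a and chr7:140900397-140900696 for Cox8b. Capitals mark 3 motifs searched on both strands: the first capitals in Cox6a1, a palindrome known as the site of nuclear respiratory factor 1 (NRF1), CCGGAAG or its reverse complement CTTCCGG, known from factors of the ETS family, and CAGCTG, an E-box letter string known from muscle regulators.
Cox6a1: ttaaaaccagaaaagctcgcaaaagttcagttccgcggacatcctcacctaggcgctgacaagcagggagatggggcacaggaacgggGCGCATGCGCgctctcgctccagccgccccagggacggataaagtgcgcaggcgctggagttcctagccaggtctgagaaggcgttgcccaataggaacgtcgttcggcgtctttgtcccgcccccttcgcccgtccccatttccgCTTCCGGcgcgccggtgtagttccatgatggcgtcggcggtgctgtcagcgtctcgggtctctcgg
Cox8a: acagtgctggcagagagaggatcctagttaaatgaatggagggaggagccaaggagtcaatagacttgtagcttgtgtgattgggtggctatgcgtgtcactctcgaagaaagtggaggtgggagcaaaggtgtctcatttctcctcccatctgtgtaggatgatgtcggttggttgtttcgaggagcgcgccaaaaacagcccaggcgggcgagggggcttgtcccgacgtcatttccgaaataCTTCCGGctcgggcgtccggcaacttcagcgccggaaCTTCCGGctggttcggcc
Cox8b: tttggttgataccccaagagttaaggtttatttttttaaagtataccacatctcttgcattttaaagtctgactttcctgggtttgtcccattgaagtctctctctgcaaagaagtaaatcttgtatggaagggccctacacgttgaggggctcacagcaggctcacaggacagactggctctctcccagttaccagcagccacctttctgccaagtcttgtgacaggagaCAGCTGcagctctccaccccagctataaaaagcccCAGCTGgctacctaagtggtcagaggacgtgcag

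Promoters were found for 74 members. The NRF1 letters stood in 7 of them (9.46%), against 0.971% of 32851 promoters of the same length in the table, and those 7 were Atp5g2, Atp5k, Cox6a1, Ndufa11, Ndufaf4, Ndufaf5 and Uqcrc1. The ETS letters stood in 19 of the 74 (25.7%), against 8.86% of all promoters, and the E-box letters in 6 (8.11%), against 16.3%. A member counted if any of its promoters held the letters, while the share of all promoters counts each promoter once. These shares therefore differ in unit, and a gene with several promoters has more chances of a match. A match is a string of letters and not a measured site. The ETS letters stood in Cox6a1 and Cox8a, but also in Sdhb, Atp5l and Atp5k, whose PBS 1 ratios were 10.1, 10.5 and 12.9. Atp5k and Cox6a1 both held the NRF1 letters as well. The 6 members with the E-box letters were Atp5b, Cox8b, Ndufa8, Ndufb10, Ndufs5 and Ndufv2. A relation between these letters and the ratios was not tested.

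Among the nuclear subunits, levels per length in PBS 2 to 6 spanned a wide range within complexes. Medians of PBS 2 to 6 were divided by the length of the longest principal transcript, or of the longest transcript where none was marked principal. These values depend on the annotated length. It was 4371 bases for Ndufb2, 3171 for Sdhc, 1521 for Uqcrq and 4715 for Atp5g1, against 731 for Atp5g2 and 723 for Atp5g3. In complex I they ran from 2.28 CPM per kb for Ndufb2 to 124 for Ndufb9, both accessory subunits, and in complex II from 33.3 for Sdhc, a membrane anchor, to 112 for Sdha, the flavoprotein. In complex III they ran from 31.9 CPM per kb for Uqcrq to 144 for Uqcrh. In complex IV Cox8b was lowest at 0.916 CPM per kb and Cox4i1 highest at 459, and in complex V Atp5g1 was lowest at 11.5 and Atp5b, the catalytic beta subunit, highest at 306. The median over the nuclear subunits was 66.9 CPM per kb, and over the assembly genes 7.89 CPM per kb.

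Carboplatin was compared with PBS, in a study whose title concerns the effect of this drug on optic nerve oligodendrocytes. The summed nuclear subunits were at 8798, 8687 and 7600 CPM in carboplatin 1 to 3, above each of PBS 2 to 6 (6094 to 7160 CPM) and below PBS 1. Their mean was 8362 ± 662 CPM in carboplatin (SD, n = 3), against 6483 ± 422 CPM in PBS 2 to 6 (n = 5) and 12454 ± 14630 CPM in all PBS libraries (n = 6). The ratio of means was 1.29 without PBS 1 and 0.671 with it. The summed mitochondrial genes were at 35257, 64176 and 60619 CPM in carboplatin, a mean of 53351 ± 15770 CPM, against 33396 ± 5869 CPM in PBS 2 to 6 and 52179 ± 46310 CPM in all PBS libraries. Their ratio of means was 1.60 without PBS 1 and 1.02 with it. Carboplatin 2 and 3 lay above all of PBS 2 to 6 and carboplatin 1 lay within their range of 26812 to 41232 CPM. The ratio of the mitochondrial sum to the nuclear sum was accordingly 4.01, 7.39 and 7.98 in carboplatin, against 4.40 to 5.86 in PBS 2 to 6 and 3.45 in PBS 1.

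**Figure D2:**
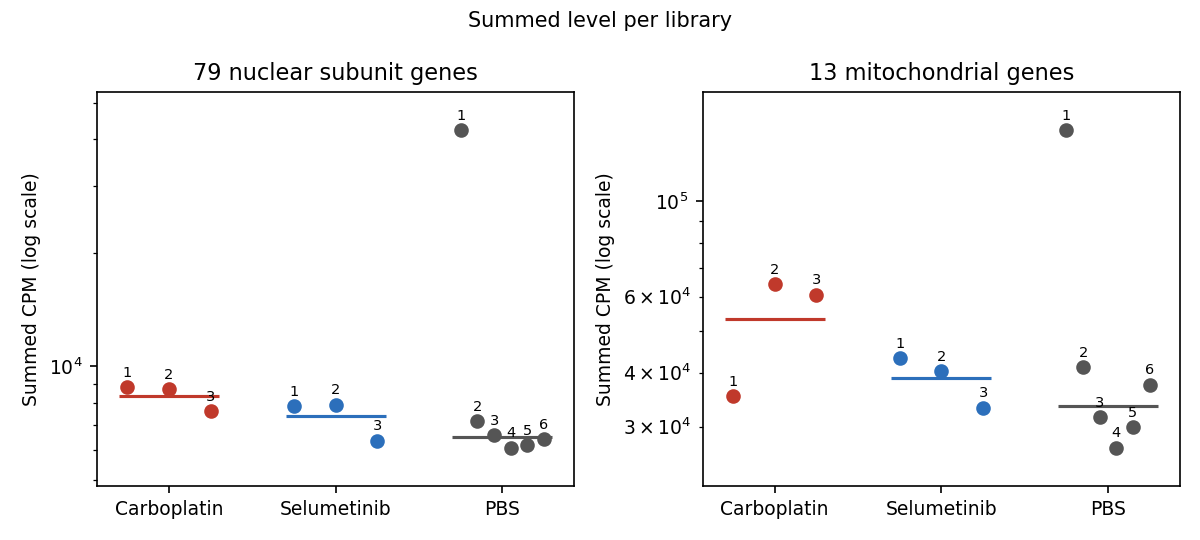
Summed CPM (log axes that do not start at 0) of the 79 nuclear subunit genes, left, and the 13 mitochondrial genes, right. Each numbered point is a library and bars are group means, without PBS 1 for PBS. PBS 1 lies at 42308 and 146090 CPM, above all other libraries.

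With all 12 libraries, 0 of the 103 members were called for carboplatin against PBS by edgeR's quasi-likelihood test at an adjusted p under 0.05, against 2.09% of all 18344 genes (1.57% higher and 0.518% lower). Before adjustment, 2 members were higher and 1 lower at p under 0.05, against 1489 and 1546 of the 18344 genes. DESeq2 called 2 members, all higher, when it called 8.58% of all genes, and limma voom 21, all higher, when it called 29.8%. The fitted log2 fold changes had a median of -0.65 for the nuclear subunits and -0.06 for the mitochondrial genes, against -0.11 over all genes. Without PBS 1, 18 of 103 members (17.5%) were called and all 18 were higher in carboplatin, against 6.79% of 18112 genes called higher, 3.93% called lower and 10.7% called in either direction. The median log2 fold change was then 0.33 for the nuclear subunits and 0.55 for the mitochondrial genes, against -0.03 over all genes, and 77 of the 79 nuclear subunits were above 0. The sign of the log2 fold change depended on PBS 1 for 83 of the 103 members.

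**Figure D3:**
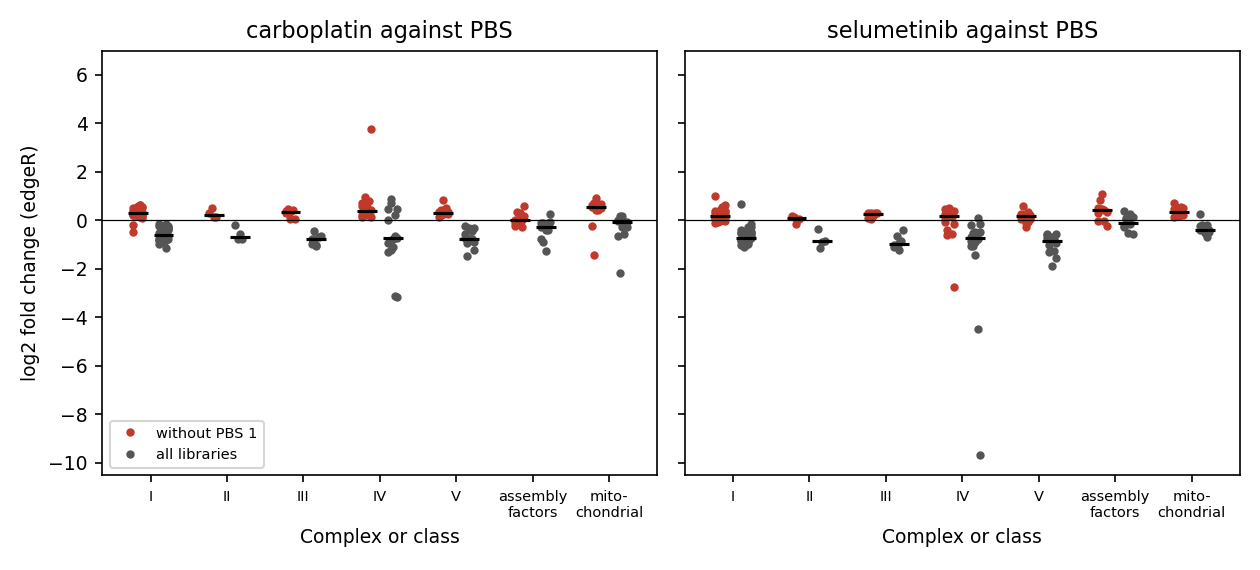
Log2 fold changes against PBS for carboplatin, left, and selumetinib, right. Each point is a member, red without PBS 1 and grey with all libraries, and black bars are medians by complex or class. The nuclear medians lie above 0 without PBS 1 and below 0 with it, and the lowest grey point is Cox8b.

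Of the 18 members called without PBS 1, 7 encode complex I subunits, among them Ndufs3, Ndufs7 and Ndufv1, which belong to its core, and the accessory Ndufb9, Ndufb10 and Ndufb11. Ndufv1, the subunit that takes electrons from NADH, was at 151, 133 and 131 CPM in carboplatin, against 104, 96.2, 83.4, 87.5 and 86.2 CPM in PBS 2 to 6 and 654 CPM in PBS 1. The groups did not overlap, and the log2 fold change without PBS 1 was 0.58 ± 0.11 (SE) with an edgeR adjusted p of 0.00961. Ndufb11 was at 107, 119 and 91.5 CPM in carboplatin, against 79.2, 78.5, 61.7, 69.6 and 62.0 CPM in PBS 2 to 6, again without overlap (0.57 ± 0.11, edgeR adjusted p = 0.0123). Ndufs1, the largest core subunit, gave 89.2, 69.2 and 78.2 CPM in carboplatin, against 78.2 to 102 CPM in PBS 2 to 6, and was not called (-0.18 ± 0.14, edgeR adjusted p = 0.450).

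Complexes II and III gave 1 and 2 called members. Sdhb, the iron-sulfur subunit of succinate dehydrogenase, was at 117, 103 and 90.5 CPM in carboplatin, against 79.2, 77.2, 69.0, 65.8 and 66.9 CPM in PBS 2 to 6, and PBS 1 held 696 CPM. All 3 carboplatin values were above all 5 of PBS 2 to 6, with a log2 fold change of 0.51 ± 0.11 (edgeR adjusted p = 0.0136). Sdha was at 436, 394 and 435 CPM in carboplatin, against 321 to 359 CPM in PBS 2 to 6, without overlap but with an edgeR adjusted p of 0.0833. In complex III, Uqcr10 (0.40 ± 0.09) and Uqcrh (0.47 ± 0.13), both small subunits, were called, while the core subunit Uqcrc1 (0.44 ± 0.14) and the Rieske iron-sulfur subunit Uqcrfs1 (0.29 ± 0.11) had edgeR adjusted p-values of 0.0752 and 0.108.

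In complex IV, Cox4i1, Cox6a1, Cox7a2l and Cox8b were called without PBS 1. Cox4i1 was at 527, 627 and 480 CPM in carboplatin, against 406, 351, 297, 349 and 357 CPM in PBS 2 to 6, with a log2 fold change of 0.61 ± 0.13 and an edgeR adjusted p of 0.0136. Cox6a1 was at 244, 287 and 211 CPM in carboplatin, against 158 to 193 CPM in PBS 2 to 6, without overlap (0.44 ± 0.11, edgeR adjusted p = 0.0313). It is the called member whose level in PBS 1, the library with 7.5% of skeletal muscle marker counts, was not above the other PBS libraries, and with PBS 1 its log2 fold change was 0.46 ± 0.12 (edgeR adjusted p = 0.0844). Cox7a2l was at 150, 243 and 266 CPM in carboplatin, against 105 to 142 CPM in PBS 2 to 6 (0.74 ± 0.18, edgeR adjusted p = 0.0263). Cox5a was at 76.1, 59.9 and 57.6 CPM in carboplatin, against 38.6 to 50.3 CPM in PBS 2 to 6, and narrowly missed the threshold (0.56 ± 0.16, edgeR adjusted p = 0.0509).

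Cox8b differed from the other called members in its pattern over libraries. It was at 16.5, 19.7 and 0.634 CPM in carboplatin, against 1.97, 1.67, 0.319, 0.330 and 0.133 CPM in PBS 2 to 6. Carboplatin 1 and 2 were high while carboplatin 3 lay between PBS 2 and 3 and PBS 4 to 6, so the groups overlapped, and the log2 fold change was 3.78 ± 1.05 (edgeR adjusted p = 0.0456). Cox6a2, outside the members, was at 68.9, 55.0 and 9.52 CPM in carboplatin, against 6.03, 7.25, 1.04, 0.371 and 0.664 CPM in PBS 2 to 6. It too was highest in carboplatin 1 and 2, but here carboplatin 3 lay above PBS 2 and 3. The skeletal muscle markers took 0.288%, 0.227% and 0.0194% of the counts in the same carboplatin libraries. The part of these muscle transcripts in the carboplatin results of the other members was not tested. Without carboplatin 1, the library highest in muscle markers of that group, the median log2 fold change of the nuclear subunits was 0.27. In that fit 12 members were called, and without carboplatin 2 these values were 0.29 and 8. Each fit keeps the other library high in muscle markers (0.227% or 0.288%), so these fits cannot show the part of muscle transcripts. The counts are given here without the share of all genes called in the same fits. Red blood cell markers took 0.00249%, 0.00353% and 0.00915% of the counts in carboplatin, against 0.0258% to 0.823% in PBS, and 6 of the 7 genes were called lower without PBS 1. Microglia markers took 0.0693%, 0.0907% and 0.0668% in carboplatin, against 0.0313% in PBS 1 and 0.102% to 0.118% in PBS 2 to 6, and in both lists carboplatin and PBS 2 to 6 did not overlap. Photoreceptor markers, at 0.0888%, 0.00738% and 0.158% in carboplatin, against 0.00147% to 0.0165% in PBS 2 to 6, and neuron markers, at 0.0122%, 0.0121% and 0.00854%, against 0.00752% to 0.0601%, did overlap. The part of these cell types in the results was not tested.

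In complex V, Atp5j, a coupling subunit of the stalk (0.37 ± 0.09), and Atp5l, subunit g (0.53 ± 0.14), were called, with edgeR adjusted p-values of 0.0269 and 0.0399. The catalytic subunits were not: Atp5a1 was at 693, 541 and 618 CPM in carboplatin, against 426 to 536 CPM in PBS 2 to 6 (edgeR adjusted p = 0.113), and Atp5b at 807, 664 and 675 CPM, against 530 to 682 CPM (edgeR adjusted p = 0.229). Of the 3 genes for the same mature c subunit, Atp5g1, Atp5g2 and Atp5g3 had log2 fold changes of 0.42 ± 0.20, 0.27 ± 0.09 and 0.32 ± 0.12, with none called. Among the assembly genes only Sdhaf1, which helps insert iron-sulfur clusters into complex II, was called (0.58 ± 0.14, edgeR adjusted p = 0.0281), and 69.6% of its exonic bases are overlapped by a gene on the opposite strand. The median over the 11 assembly genes was 0.04.

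**Figure D4:**
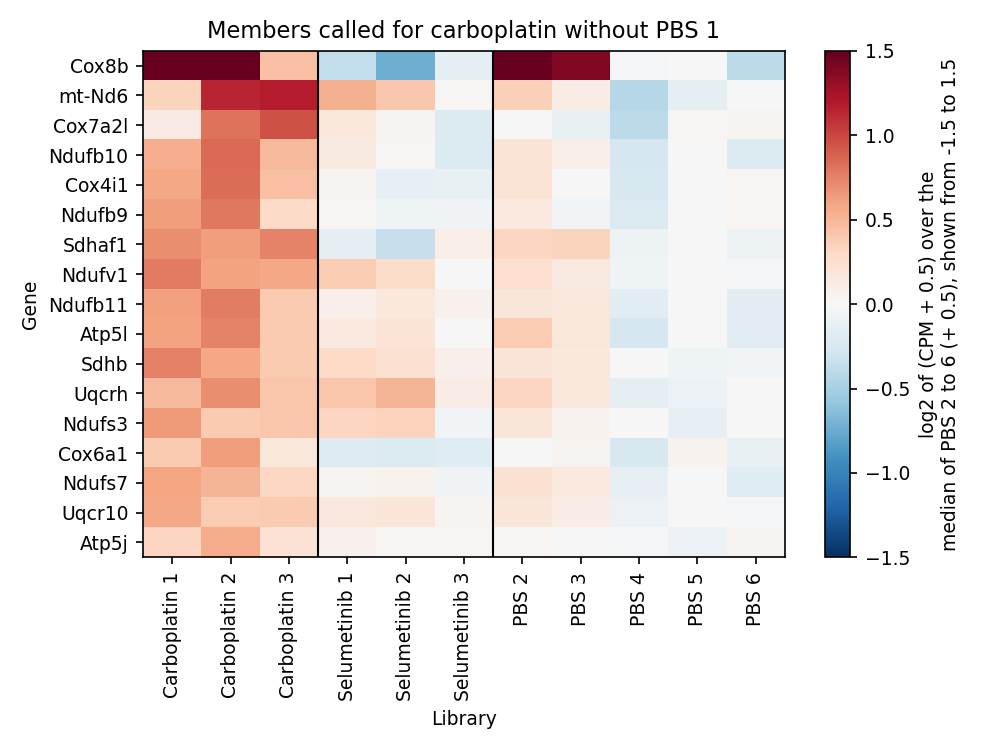
Members called for carboplatin against PBS without PBS 1 (rows), as log2 of (CPM + 0.5) over the median of PBS 2 to 6 (+ 0.5) in 11 libraries (columns), with colours ending at -1.5 and 1.5. The carboplatin columns are mostly red. Cox8b, in the top row, is also high in PBS 2 and 3 and is low in carboplatin 3 relative to carboplatin 1 and 2.

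In the fits that left out 1 further library beside PBS 1, between 6 and 46 members were called. The count was 46 without selumetinib 3, when 20.2% of all genes were called, and 8 without carboplatin 2, when 6.47% were. It was 7 without PBS 4 (5.94% of all genes), 6 without PBS 5 (6.12%) and 6 without PBS 6 (6.06%). Of the 18 members, 3 passed in every one of these 11 fits: Ndufb11, Cox4i1 and Ndufv1. With PBS 2 and 3 as the controls none of the 18 passed, when 0.157% of all genes were called, and the nuclear median was 0.25. With PBS 4 to 6 as the controls 24 members passed, when 12.3% of all genes did, and the nuclear median was 0.40. Over libraries, 32 of the 103 members had every carboplatin library above every one of PBS 2 to 6, against 14.0% of all genes. In 1 member, the assembly factor gene Ndufaf2, every one lay below, against 11.3% of all genes. Of the exonic bases of Ndufaf2, 65.6% are overlapped by a gene on the opposite strand.

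Selumetinib was compared with the same PBS libraries, so its values and those of carboplatin share their controls. The labels do not say whether each drug had PBS mice of its own, so differences between sets of controls and between drugs cannot be told apart if it did. With PBS 2 and 3 as the controls the nuclear median for selumetinib was 0.09, and with PBS 4 to 6 it was 0.25, with 0 members called by edgeR in each. The summed nuclear subunits were at 7844, 7923 and 6352 CPM in selumetinib 1 to 3, a mean of 7373 ± 885 CPM, against 6483 ± 422 CPM in PBS 2 to 6 and 12454 ± 14630 CPM in all PBS libraries. The ratio of means was 1.14 without PBS 1 and 0.592 with it. Selumetinib 1 and 2 lay above all of PBS 2 to 6, and selumetinib 3 lay within their range. The summed mitochondrial genes were at 43146, 40257 and 33198 CPM in selumetinib, a mean of 38867 ± 5117 CPM, and 1 library, selumetinib 1, lay above all of PBS 2 to 6. Over PBS their ratio of means was 1.16 without PBS 1 and 0.745 with it. Selumetinib 1 and 2 also held fewer mature oligodendrocyte marker counts, 3.18% and 2.26%, than selumetinib 3 (7.21%) and PBS 2 to 6 (6.38% to 7.36%), and more neuron marker counts, 0.212% and 0.230%, against 0.0305% in selumetinib 3 and 0.00752% to 0.0601% in PBS 2 to 6. The part of these markers in the differences was not tested.

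No member was called for selumetinib against PBS, and edgeR called 0 of all genes (0%), with and without PBS 1. At an unadjusted p under 0.05, 0 members were higher and 2 lower with all libraries, against 2575 and 1835 of 18344 genes. Without PBS 1, 31 members were higher and 0 lower, against 3505 and 2473 of 18112 genes. DESeq2 called 17 members without PBS 1, when it called 21.4% of all genes, and limma voom called 62, when it called 56.1%. The median log2 fold change of the nuclear subunits was 0.19 without PBS 1 and -0.77 with it, and that of the mitochondrial genes 0.33 and -0.40. Of the 103 members, 77 changed sign with PBS 1. Without selumetinib 3 and PBS 1, edgeR called 42 of the 103 members, when it called 41.1% of all genes. With selumetinib 3 as the only selumetinib library, the nuclear median was -0.04.

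The nearest to the threshold included genes that were not near it for carboplatin. Ndufb2, an accessory subunit of complex I, was at 20.5, 23.9 and 12.6 CPM in selumetinib, against 11.7, 6.66, 9.96, 7.71 and 10.9 CPM in PBS 2 to 6, without overlap (log2 fold change 1.02 ± 0.24, edgeR adjusted p = 0.0600). The assembly factor genes Ndufaf5 and Ndufaf7 had 0.86 ± 0.24 and 0.43 ± 0.11, with edgeR adjusted p-values of 0.0618 and 0.0600. In all, 13 members had every selumetinib library above every one of PBS 2 to 6, against 5.21% of all genes, and 0 members had every one below, against 4.83%.

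Between the drugs, carboplatin against selumetinib, 2 members were called with all libraries (1.94%), against 14.0% of all genes, of which 5.65% were higher and 8.35% lower. Cox6a1 was at 244, 287 and 211 CPM in carboplatin, against 164, 162 and 165 CPM in selumetinib (log2 fold change 0.60 ± 0.14, edgeR adjusted p = 0.0257). Cox6b2 was at 22.2, 11.7 and 24.1 CPM in carboplatin, against 5.77, 6.07 and 9.75 CPM in selumetinib (1.43 ± 0.34, edgeR adjusted p = 0.0240). In these 2 genes the libraries of the 2 drugs did not overlap. The count of called members was 0 when carboplatin 1, carboplatin 3, selumetinib 1 or selumetinib 2 was left out. It was 1 without carboplatin 2, 4 without selumetinib 3, 3 without PBS 3 and 26 without PBS 1. For the fits other than the last, the share of all genes called is not given here. A change particular to the members is therefore not shown.

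Without PBS 1 the 26 called members were 25.2% of the 103, against 33.0% of all genes, of which 14.9% were higher and 18.1% lower, so the share was below that of the background. Higher in carboplatin were 21, among them Cox8b (6.51 ± 1.54), Cox6b2 (1.41 ± 0.31), Atp5k (1.12 ± 0.36), Sdhaf1 (0.81 ± 0.16) and Cox4i1 (0.68 ± 0.14). The Cox8b values rest on few reads in selumetinib, at 0.142, 0 and 0.257 CPM. The 5 lower members were Ndufb2 (-1.48 ± 0.28), Ndufaf5 (-0.98 ± 0.28), Ndufaf4 (-0.50 ± 0.16), Ndufs1 (-0.47 ± 0.16) and Ndufaf7 (-0.40 ± 0.12), of which 3 are genes of complex I assembly factors. Ndufb2 was at 6.11, 8.07 and 6.48 CPM in carboplatin, against 20.5, 23.9 and 12.6 CPM in selumetinib (edgeR adjusted p = 0.00519). Of the 26 members, 8 passed in every fit without 1 further library, and 0 passed without selumetinib 1 and 2. The count fell to 9 without selumetinib 1 and to 9 without selumetinib 2, to 11 without carboplatin 2 and to 14 without carboplatin 1. The share of all genes called in these fits is not given here, so a fall particular to the members is not shown.

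The median log2 fold change between the drugs was 0.15 for the nuclear subunits and 0.19 for the mitochondrial genes, against -0.02 over all genes. With total counts in place of TMM factors these medians were -0.09 and -0.07, and that scaling moved the median of all genes to -0.26. Relative to all genes the medians of both sets thus stayed higher in carboplatin. The calls did not keep this direction: with total counts, and with voom, more members were called lower than higher. Scaling by total counts also moved the median of all genes to -0.17 for carboplatin against PBS without PBS 1, where the nuclear median was 0.18. Of the members, 23 had every carboplatin library above every selumetinib library, against 21.0% of all genes, and 5 had every one below, against 20.9%. The first share, 22.3% of the members, is near the background.

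The mitochondrial genes fell into 2 classes by level, and 5 of the 6 genes in the lower class have an annotated nuclear copy of nearly their whole length. In 7 genes, mt-Nd1, mt-Nd2, mt-Nd4, mt-Nd5, mt-Nd6, mt-Co1 and mt-Cytb, libraries held 23356 to 1253787 counts, and these 7 made up at least 99.85% of the mitochondrial sum in each of PBS 2 to 6. In the other 6, mt-Co2, mt-Co3, mt-Atp6, mt-Atp8, mt-Nd3 and mt-Nd4l, libraries held 2 to 1893 counts. Per length the medians of PBS 2 to 6 ran from 1980 CPM per kb for mt-Nd4 to 8120 CPM per kb for mt-Co1 in the first class, and from 1.14 CPM per kb for mt-Atp8 to 18.1 CPM per kb for mt-Co2 in the second. The mitochondrial transcripts are cut from long precursors, and mt-Co2, mt-Atp8, mt-Atp6 and mt-Co3 follow each other on the heavy strand. Not every gene has a transcript of its own: mt-Nd4l, of the lower class, overlaps mt-Nd4, of the higher class, by 7 bases. The classes are thus of counts per gene and not of separate transcripts. The share of 50-base windows also found in exons of other genes was 100% for mt-Co2, 99.86% for mt-Co3, 99.53% for mt-Atp6, 98.8% for mt-Nd4l and 98.0% for mt-Nd3. It was 51.1% for mt-Co1, 62.2% for mt-Nd4, 8.19% for mt-Nd2, 7.61% for mt-Nd5 and 0% for mt-Nd1, mt-Nd6, mt-Cytb and mt-Atp8. These shares count annotated exons only, and mt-Atp8 lies between mt-Co2 and mt-Atp6, sharing its last 43 bases with mt-Atp6, so its 0% does not show that the genome holds no copy of it.

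**Figure D5:**
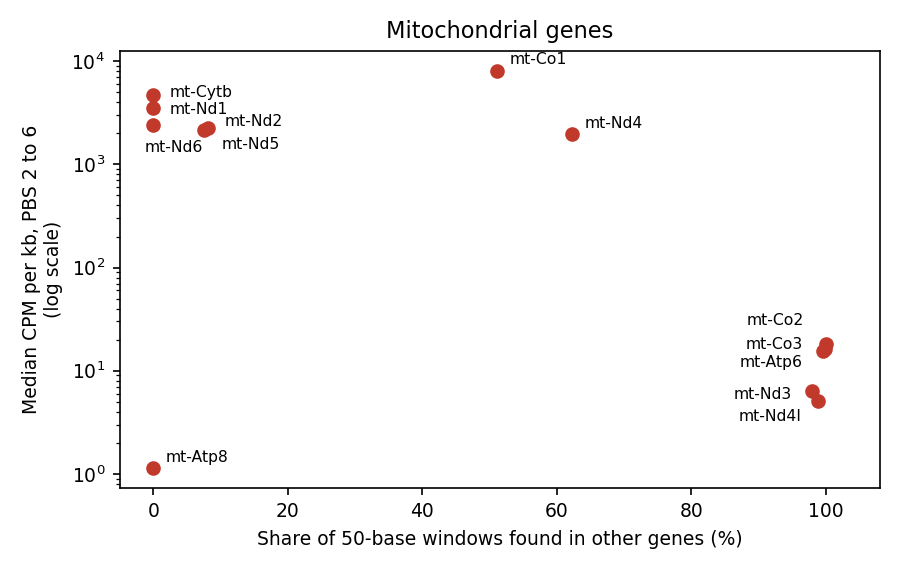
Each point is 1 of the 13 mitochondrial genes, by the share of its 50-base windows found in exons of other annotated genes (horizontal) and its median CPM per kb in PBS 2 to 6 (vertical, log axis). The 5 genes at or near 100% lie below 20 CPM per kb, and mt-Atp8 lies lowest at 0%, a share that covers annotated exons only.

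The copies are pseudogenes on chromosome 1, and 2 stretches are shown to let the likeness be seen. Gm28661, Gm10925, Gm28437 and Gm10222 matched mt-Co2, mt-Atp6, mt-Co3 and mt-Nd4l without a difference over the length of the copy (identity 100%), and Gm28438 matched mt-Nd3 at 345 bases with 1 difference. The first stretch of mt-Nd3 lies at chrM:9459-9578 on the plus strand and its copy in Gm28438 at chr1:24613000-24613119 on the minus strand (GRCm38, both written 5′ to 3′ along the gene). Capitals mark the bases that differ.
mt-Nd3: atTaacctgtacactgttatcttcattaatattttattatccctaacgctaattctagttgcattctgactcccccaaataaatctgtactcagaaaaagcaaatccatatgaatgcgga
Gm28438: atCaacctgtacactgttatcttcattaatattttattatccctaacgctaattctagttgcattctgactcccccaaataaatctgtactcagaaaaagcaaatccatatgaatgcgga

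For mt-Co1, which was counted at high levels, copies lie on chromosomes 1 and 2. Gm29216 on chromosome 1 shared 28.74% of the windows of mt-Co1 and held 6950 counts over all libraries. Gm13340 on chromosome 2 shared 27.47% and held 1526 counts. Of these copies, differences were counted for Gm13340 only, which differed at 37 of 1545 bases. The stretch at chrM:5828-5947 on the plus strand and its counterpart at chr2:22589028-22589147 on the minus strand show 5 of these, in capitals.
mt-Co1: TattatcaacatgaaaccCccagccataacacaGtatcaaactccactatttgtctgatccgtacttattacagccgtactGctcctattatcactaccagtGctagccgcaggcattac
Gm13340: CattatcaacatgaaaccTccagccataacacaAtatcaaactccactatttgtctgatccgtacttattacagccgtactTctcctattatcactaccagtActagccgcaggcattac

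How the authors counted reads that match several places was not given in the sources used here, so the levels of mt-Co2, mt-Co3, mt-Atp6, mt-Nd3, mt-Nd4l and, in part, mt-Co1 and mt-Nd4 are uncertain. The part of the copies in the low levels was not tested. Carboplatin 1 was the lowest carboplatin library in each of the 7 high genes. mt-Co1, a catalytic subunit of complex IV, was at 13631, 25970 and 23996 CPM in carboplatin, against 15886, 12545, 10158, 11540 and 14144 CPM in PBS 2 to 6. mt-Cytb, the cytochrome b of complex III, was at 5906, 10157 and 9817 CPM in carboplatin, against 4678 to 7244 CPM in PBS 2 to 6. In both genes carboplatin 2 and 3 were above all of PBS 2 to 6 and carboplatin 1 was not.

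mt-Nd6, the mitochondrial member encoded on the light strand, was the 1 mitochondrial gene called for carboplatin against PBS without PBS 1. The strand setting of the counting was not given, so counts of mt-Nd6 may include RNA of the opposite strand. It was at 1573, 2754 and 2820 CPM in carboplatin, against 1604, 1350, 930, 1134 and 1248 CPM in PBS 2 to 6, so carboplatin 1 overlapped with PBS 2 (log2 fold change 0.91 ± 0.23, edgeR adjusted p = 0.0297). With all libraries the log2 fold change was 0.16 ± 0.58 (edgeR adjusted p = 0.914). Without PBS 1, it was not called without carboplatin 2, without carboplatin 3, or without any of PBS 4, 5 and 6. The other high genes had log2 fold changes of 0.44 for mt-Nd2, 0.53 for mt-Nd4, 0.55 for mt-Cytb, 0.70 for mt-Co1, 0.72 for mt-Nd5 and 0.74 for mt-Nd1, and mt-Nd1 came nearest to the threshold (edgeR adjusted p = 0.0544). Of the low genes, mt-Atp8 had -1.44 ± 0.80 and mt-Nd4l -0.22 ± 0.32, and mt-Nd3, mt-Co2, mt-Atp6 and mt-Co3 had 0.44, 0.49, 0.63 and 0.70. With all libraries the 7 high genes ran from -0.27 for mt-Nd2 to 0.17 for mt-Nd5, and the 6 low genes from -2.18 for mt-Atp8 to -0.04 for mt-Atp6. For selumetinib without PBS 1 the log2 fold changes of the 13 genes ran from 0.14 for mt-Cytb to 0.73 for mt-Nd4l. With all libraries they ran from -0.69 for mt-Nd3 to 0.28 for mt-Nd4l, with 12 of the 13 below 0.

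Genes next to the respiratory chain were described with lists chosen apart from these members. For carboplatin against PBS without PBS 1, 2 of 31 assembly factor genes outside the members were higher (Foxred1 and Surf1), 3 of 22 genes of electron carriers and inner membrane transport (Etfb, Slc25a4 and Ucp2), 4 of 22 genes of the tricarboxylic acid cycle and pyruvate dehydrogenase, 2 of 18 genes of mitochondrial biogenesis and transcription (Slirp and Polrmt), and 3 of 18 glycolysis genes, with 0 lower in each list. Over all genes 6.79% were called higher, and 2 of 31 is near that share. The list medians, in the same order, were -0.01, 0.17, 0.12, 0.08 and 0.25 without PBS 1, against -0.03 over all genes. With all libraries they were -0.36, -0.49, -0.67, -0.14 and -0.19, against -0.11 over all genes, so 4 of them turned sign, and 0 genes of these 5 lists were called by edgeR. Pdk4, a kinase that restrains pyruvate dehydrogenase, was at 230, 119 and 120 CPM in carboplatin, against 47.6, 39.8, 24.9, 20.5 and 27.7 CPM in PBS 2 to 6, without overlap (log2 fold change 2.27 ± 0.32, edgeR adjusted p = 0.00250), and PBS 1 held 339 CPM. Slc2a1, the glucose transporter GLUT1, was at 355, 379 and 342 CPM in carboplatin, against 156 to 194 CPM in PBS 2 to 6 and 62.0 CPM in PBS 1 (0.98 ± 0.15, edgeR adjusted p = 0.00444). Slc25a4, the ADP/ATP carrier of heart and muscle, was at 716, 647 and 630 CPM in carboplatin, against 381 to 514 CPM in PBS 2 to 6 (0.56 ± 0.13, edgeR adjusted p = 0.0195). PBS 1, the library with 7.5% of skeletal muscle marker counts, held 4712 CPM of it.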

How the data were processed

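The 12 libraries hold polyadenylated RNA from mouse optic nerves. The authors deposited raw counts per gene, and FastQC, Trimmomatic, STAR, HTSeq, DESeq2 and the build mm10 are named in the submitters' processing notes. Strand setting, tool versions and the handling of multiply matching reads are not given in the sources used here. Libraries held 21793052 to 33375754 counts, and low counts limit the precision of rare genes.

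Counts were tested with edgeR 4.0.16 in R 4.3.3: filterByExpr (minimum count 10, total 15), TMM factors, and the quasi-likelihood test on 1 fit of the 3 groups without a block, with Benjamini-Hochberg adjustment over all genes (18344, or 18112 without PBS 1) and a threshold of 0.05. The standard error is the size of the log2 fold change divided by the square root of the F statistic. Tests were checked on simulated data. DESeq2 1.42.0, limma 3.58.1 (voom with quality weights), other scalings, filters, control sets, a replicate block and leaving out each library were alternatives, and those run without PBS 1 were chosen after seeing the data. The members and lists were chosen with earlier results of these data known.

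Genes were named by rule: the 13 mitochondrial genes, members called in any comparison (up to 10 a direction), 10 core subunits, isoform pairs, the highest and lowest per length in each complex, the 5 largest and 5 smallest ratios of PBS 1 to the other PBS libraries, and up to 3 called genes of each further list. Cox6a2, left out by the choice of members, was named after its values were seen, and 1 called member is not reported here. Lengths came from GENCODE M21, promoters from RefSeq.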

Additional observations from a re-analysis of the deposited data

Results flagged for a closer look

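Each result here was picked out because PBS 1 lay apart from the other PBS libraries: its gap to the nearest library, divided by the range of the 6, was above Dixon's critical value. Of 61 values tested, 56 met this. Chance gives about 1 in 20 for groups chosen without regard to their values, but these values share 1 library and some genes were named for their ratio in it, so the count is a description only. They are single-library values, given as CPM in PBS 1 over the median of PBS 2 to 6, and PBS 1 also holds 7.5% of skeletal muscle marker counts. The part of those transcripts in each ratio was not tested.

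The sums were 6.6 times the median for nuclear subunits, 4.63 for mitochondrial genes, 2.72 for assembly genes and 6.50 for all nuclear members, and 6.52, 5.06, 7.78, 5.76 and 7.37 for complexes I to V. In complex I the ratios were 5.67 for Ndufa2, 6.09 for Ndufb10, 5.75 for Ndufb11, 2.48 for Ndufb2, 6.82 for Ndufb9, 5.73 for Ndufs1 and 7.48 for Ndufv1. In complexes II and III they were 3.81 for Sdha, 10.1 for Sdhb, 5.03 for Sdhc, 8.23 for Uqcrc1, 9.70 for Uqcrfs1, 6.73 for Uqcrh and 11.6 for Uqcrq. In complex IV they were 4.21 for Cox4i1, 14.3 for Cox5a, 8.07 for Cox6b1, 81.8 for Cox7a1, 6.21 for Cox7a2, 2.18 for Cox7a2l and 1955 for Cox8b. In complex V they were 6.69 for Atp5a1, 7.44 for Atp5b, 18.2 for Atp5g1, 4.10 for Atp5g2, 8.15 for Atp5g3, 12.9 for Atp5k and 10.5 for Atp5l.

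Among assembly and related genes the ratios were 1.60 for Atp5s, 1.58 for Ndufaf2, 3.95 for Ndufaf4, 5.18 for Ndufaf5, 15.5 for Ndufaf6, 1.69 for Ndufaf7 and 2.75 for Sdhaf1. Among mitochondrial genes they were 5.22 for mt-Atp6, 4.65 for mt-Co1, 4.75 for mt-Co2, 6.95 for mt-Co3, 4.03 for mt-Cytb, 5.38 for mt-Nd1, 5.53 for mt-Nd2, 7.35 for mt-Nd3, 4.46 for mt-Nd4, 3.14 for mt-Nd4l, 4.02 for mt-Nd5 and 5.20 for mt-Nd6.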

How the results depend on the processing

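The cause of the changes given here was not tested, beyond the fewer libraries that some settings hold. Counts of called members in this section are given without the share of all genes called in the same fit. A change in them is therefore not shown to be particular to the members. With all libraries, members called for carboplatin against PBS numbered 2 with DESeq2, 21 with voom, 24 with PBS 4 to 6 as controls, and 24 without PBS 1, selumetinib 1 and selumetinib 2. The nuclear median log2 fold change was then 0.24 with voom, 0.40 with PBS 4 to 6 and 0.32 without those 3 libraries. For selumetinib against PBS, voom called 41. The nuclear median was 0.29 with voom and 0.25 with PBS 4 to 6, and the mitochondrial median 0.46 and 0.36. For carboplatin against selumetinib, 25 were called with voom, 10 with only the groups compared, 0 with PBS 1 to 3, 24 with PBS 4 to 6, 0 without those 3 libraries and 0 with the replicate block. Leaving out 1 library gave 0 to 18 calls for carboplatin against PBS, with nuclear medians of -0.80 to 0.33 and mitochondrial medians of -0.23 to 0.55. It gave 0 calls for selumetinib against PBS, with medians of -0.92 to 0.19 and -0.50 to 0.33, and 0 to 26 calls between the drugs, with medians of 0.03 to 0.24 and 0.06 to 0.46. The mean PBS sums without PBS 1 were 6483 and 33396 CPM.

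Without PBS 1, carboplatin against PBS gave 42 calls with DESeq2, 42 with voom, 7 with total counts (nuclear median 0.18), 0 with PBS 2 and 3 as controls and 0 with the replicate block. Selumetinib against PBS gave 17 with DESeq2, 62 with voom and 9 with total counts, and its nuclear median was -0.039 without selumetinib 1 and 2 and 0.044 with the replicate block. Carboplatin against selumetinib gave 46 with voom (20 higher, 26 lower), 10 with only the groups compared, 12 with PBS 2 and 3, 0 without selumetinib 1 and 2 and 10 with the block. With total counts it gave 21 calls, 5 higher and 16 lower. Its nuclear median was -0.014 with voom, -0.094 with total counts and 0.345 without selumetinib 1 and 2, where the mitochondrial median was 0.56. Leaving out 1 further library gave 6 to 46, 0 to 42 and 9 to 31 calls in the 3 comparisons, nuclear medians of 0.265 to 0.42, 0.12 to 0.28 and 0.07 to 0.22, and mitochondrial medians of 0.44 to 0.76, 0.23 to 0.45 and 0.05 to 0.45.

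With PBS 1, the log2 fold changes of 13 of the 18 called members turned, among them Ndufs3 -0.60, Sdhb -0.76, Ndufs7 -0.62, Ndufb9 -0.39, Atp5j -0.24, Cox8b -3.14, Ndufb11 -0.25, Ndufv1 -0.42, Atp5l -0.79, Ndufb10 -0.24, Uqcr10 -0.765 and Uqcrh -0.45. Of the alternatives for single genes, 770 kept direction and side of the threshold, 367 lost the call and 13 turned. Correlations between libraries did not decide whether the replicate numbers pair the samples, since same-numbered and differently numbered pairs overlapped. Same-numbered libraries correlated at 0.26, 0.0127 and 0.192 for carboplatin with PBS, and differently numbered ones at -0.263 to 0.0348. For selumetinib with PBS these values were -0.129, 0.434 and 0.347, and -0.527 to 0.479. For carboplatin with selumetinib they were 0.00631, 0.0343 and 0.105, and -0.0982 to 0.0598. Of the PBS libraries, only PBS 1 to 3 were in this check.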

Other observations

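The chromosome 1 copies of mitochondrial genes carry counts of their own, and these followed another order of libraries than the mitochondrial genes. Gm28661, the copy of mt-Co2, held 1054, 1349 and 1491 counts in carboplatin 1 to 3 and 231, 273 and 164 in selumetinib 1 to 3, against 2725 in PBS 1, 847 and 727 in PBS 2 and 3, and 107, 155 and 194 in PBS 4 to 6. mt-Co2 itself held 353, 531 and 558 counts in carboplatin and 540, 520 and 333 in selumetinib, against 1262 in PBS 1 and 269 to 399 in PBS 2 to 6. The copy thus separated PBS 2 and 3 from PBS 4 to 6, while the gene did not, and carboplatin lay with PBS 1 to 3 and selumetinib nearer to PBS 4 to 6. Gm10925, the copy of mt-Atp6, had the same division, with 1459, 2107 and 2130 counts in carboplatin and 319, 265 and 210 in selumetinib, against 1120 and 1129 in PBS 2 and 3 and 178 to 284 in PBS 4 to 6. Gm28438, the copy of mt-Nd3, did not, with 537, 708 and 1060 counts in carboplatin and 1244, 845 and 552 in selumetinib, against 440 to 963 in PBS 2 to 6.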
